A study of Mus musculus with 8 samples.

Results

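The genes of the calcium/calmodulin-dependent kinases were examined for open chromatin in cultured mouse cortical neurons, site by site. The set holds 10 of 21887 protein-coding genes: Camk2a, Camk2b, Camk2d and Camk2g (CaMKII), Camk4 (CaMKIV), Camk1, Camk1d and Camk1g (CaMKI), and Camkk1 and Camkk2 (the CaMK kinases). A site is a region made by merging overlapping ATAC-seq peaks of 4 peak lists, and every site within 50 kb of an annotated gene body (RefSeq, GRCm38) was taken. This gave 95 of 62023 sites, and the rule uses position alone. ATAC-seq uses the Tn5 transposase to cut and tag accessible DNA.

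Primary cortical neurons were grown from E16.5 mouse embryos. Control neurons were labelled Brg1 WT, and the others Brg1-cko with the genotype BAF53bCre Brg1F/F, in which a Cre under the neuronal gene BAF53b deletes Brg1, the motor subunit of BAF, which remodels chromatin. Neurons of each genotype were left unstimulated (basal) or depolarised with 50 mM KCl on day 6 in vitro for 1 h (KCl), which lets calcium in. TTX at 1 µM and APV at 100 µM, which block sodium channels and NMDA receptors, were given on day 5 before depolarisation. The labels do not say whether basal cultures received them. The labels state 50000 cells per sample and 2 libraries per condition, 8 libraries in all, and the authors deposited 1 peak list per condition. The WT lists are called WT basal and WT KCl, and those of Brg1-cko neurons cKO basal and cKO KCl. With 1 list per condition there is no replicate error, so values are set side by side and no test compares the conditions. The labels do not say whether the 2 libraries of a condition came from separate cultures.

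Calcium entering a neuron binds calmodulin, and calcium/calmodulin binds and activates these kinases. CaMKII is an assembly of subunits that phosphorylate each other and so stay active after calcium has fallen, and its alpha and beta subunits are abundant at cortical synapses. CaMKK1 and CaMKK2 phosphorylate CaMKI and CaMKIV in their activation loops, and nuclear CaMKIV phosphorylates the transcription factor CREB. The cascade thus carries the calcium signal raised by depolarisation to synapses, growing neurites and the nucleus.

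The starts of these genes differed widely in sequence and in how many lists held a peak there, and 5 of them are printed to show this range. The RefSeq promoter table (GRCm38.p6) held 7 of the 10 genes, with 2 starts for Camk1d and no entry for Camk2a, Camk2g or Camk4. Shown are the 250 bases before the start, 5′ to 3′ on the strand of the gene, in lower case. Capitals mark every match, on either strand, of the Sp1 box (GGGCGG, or CCGCCC on the other strand), the cyclic AMP response element (CRE, TGACGTCA), its short form (TGACG, also contained in the full CRE) and the AP-1 site (TGANTCA). Camk2d (chr3:126596701-126596950, plus strand) and Camkk1 (chr11:73018738-73018987, plus strand) had a peak over the start in all 4 lists. Camk1d (chr2:5714763-5715012, minus strand) had one in 2 lists. Camk2b (chr11:6065749-6065998, minus strand) and Camk1g (chr1:193370283-193370532, minus strand) each had a peak in the printed bases in 1 list and stand at the CpG-rich and CpG-poor extremes.
Camk2d: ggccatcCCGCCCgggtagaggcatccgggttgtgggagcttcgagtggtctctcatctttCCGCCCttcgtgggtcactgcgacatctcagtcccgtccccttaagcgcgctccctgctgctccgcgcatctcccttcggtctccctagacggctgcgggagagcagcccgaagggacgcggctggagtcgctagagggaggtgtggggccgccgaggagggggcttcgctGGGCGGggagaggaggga
Camkk1: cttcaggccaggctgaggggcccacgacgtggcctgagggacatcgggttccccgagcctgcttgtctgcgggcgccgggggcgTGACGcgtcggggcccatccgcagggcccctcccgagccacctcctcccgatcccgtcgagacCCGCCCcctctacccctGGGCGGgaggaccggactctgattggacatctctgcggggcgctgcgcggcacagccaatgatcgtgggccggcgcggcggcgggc
Camk1d: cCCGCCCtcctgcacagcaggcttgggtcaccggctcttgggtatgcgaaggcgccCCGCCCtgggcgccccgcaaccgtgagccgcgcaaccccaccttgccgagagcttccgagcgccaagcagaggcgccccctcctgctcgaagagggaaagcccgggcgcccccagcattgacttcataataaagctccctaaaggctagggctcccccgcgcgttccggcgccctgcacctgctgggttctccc
Camk2b: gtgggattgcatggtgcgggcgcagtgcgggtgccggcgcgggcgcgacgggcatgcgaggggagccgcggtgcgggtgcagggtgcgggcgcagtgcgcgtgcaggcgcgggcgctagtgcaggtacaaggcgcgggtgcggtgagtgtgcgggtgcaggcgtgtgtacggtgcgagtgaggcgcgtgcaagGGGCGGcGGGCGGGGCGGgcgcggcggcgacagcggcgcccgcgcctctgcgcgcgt
Camk1g: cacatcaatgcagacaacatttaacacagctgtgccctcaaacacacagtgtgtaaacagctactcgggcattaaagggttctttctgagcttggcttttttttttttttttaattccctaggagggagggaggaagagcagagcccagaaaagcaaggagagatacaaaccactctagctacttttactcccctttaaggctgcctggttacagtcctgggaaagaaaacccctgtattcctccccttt

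In these sequences Camk2d had 3 Sp1 boxes, at −243, −189 and −18, counting the base before the start as −1 and giving the left base of each match. Camkk1 had 2, at −103 and −86, besides the short CRE form at −166. Camk1d had 2, at −249 and −194. Camk2b had 3, at −57, −50 and −45, the last pair sharing a base. Camk1g had none of the marked motifs. The Sp1 box was present in 32.7% of all 32851 promoters of the table, in 72.6% of those with a peak in all 4 lists and in 15.2% of those with a peak in none. A match to these letters describes the sequence and is not a measured binding site.

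The lists as a whole set the scale for the kinase genes. They held 34061, 20229, 20484 and 25690 peaks for WT without and with KCl and then cKO without and with KCl, an order kept below wherever 4 values follow each other. The fold of a peak is the authors' own value per peak, its height over the local background at the summit, and the median fold was 2.82, 3.03, 2.89 and 3.08. The summit pileup, the number of fragments stacked at the summit, was recovered from the fold and the p-value of each peak, and its median was 32, 30, 33 and 31. Its unit is called a fragment here, but the sources used do not say whether fragments or single reads were counted. The most frequent local background was 9.30, 8.23, 9.47 and 8.36 fragments, and at that background the smallest pileup listed was 21, 20, 22 and 20. A site with fewer fragments is not listed, so no peak in a list means below threshold and not closed. Smarca4, which encodes Brg1, had a peak at a gene end in every list (fold 4.89, 5.32, 5.21 and 5.62), which says nothing of the deletion, whose exons the labels do not name. Of marker genes with a peak within 1 kb of a gene end, neuron markers had 5, 4, 4 and 4 of 6 (none for Rbfox3), excitatory neuron markers 1, 1, 2 and 2 of 6, and inhibitory neuron markers 1, 1, 1 and 2 of 5. Progenitor markers had 4, 2, 2 and 3 of 5, oligodendrocyte lineage markers 3, 2, 3 and 2 of 5, endothelial and mural markers 0, 0, 1 and 2 of 5, and microglia markers 0 of 5 in every list. Astrocyte markers had 4, 0, 0 and 0 of 5, the 4 in WT basal being Gfap (fold 2.75), Aldh1l1 (2.56), Slc1a3 (2.82) and S100b (3.27), with none for Aqp4. Of these only S100b was above the median fold of WT basal, the longest list. Over all protein-coding genes the share with such a peak was 46.8%, 40.1%, 39.2% and 45.4%. Cultures are mixtures, and more cells with an open site cannot be told apart from a more open site in each cell.

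The 95 kinase gene sites numbered 53 in the basal and 34 in the KCl list of WT, and 34 and 42 in those of cKO. Of these sites 65 were in 1 list, 8 in 2, 6 in 3 and 16 in all 4. The share in 1 list was 68.4%, beside 71.4% of all regions, and the share in all 4 lists was 16.8%, beside 11.6% of all regions. Within the gene bodies lay 42 sites, 9 lay within 1 kb of an end of the kinase gene itself, 16 at an end of another gene, and 28 elsewhere in the flanks. Of the 16 sites in all 4 lists, 9 were at ends of other genes, 4 inside a kinase gene, 2 at an end of a kinase gene and 1 in a flank. Flank sites were the opposite, with 25 of 28 in 1 list. The split of all regions by class is not given here, so these class counts show no trait particular to the kinase genes. Exon, intron and UTR positions were not analysed here.

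**Figure D1:**
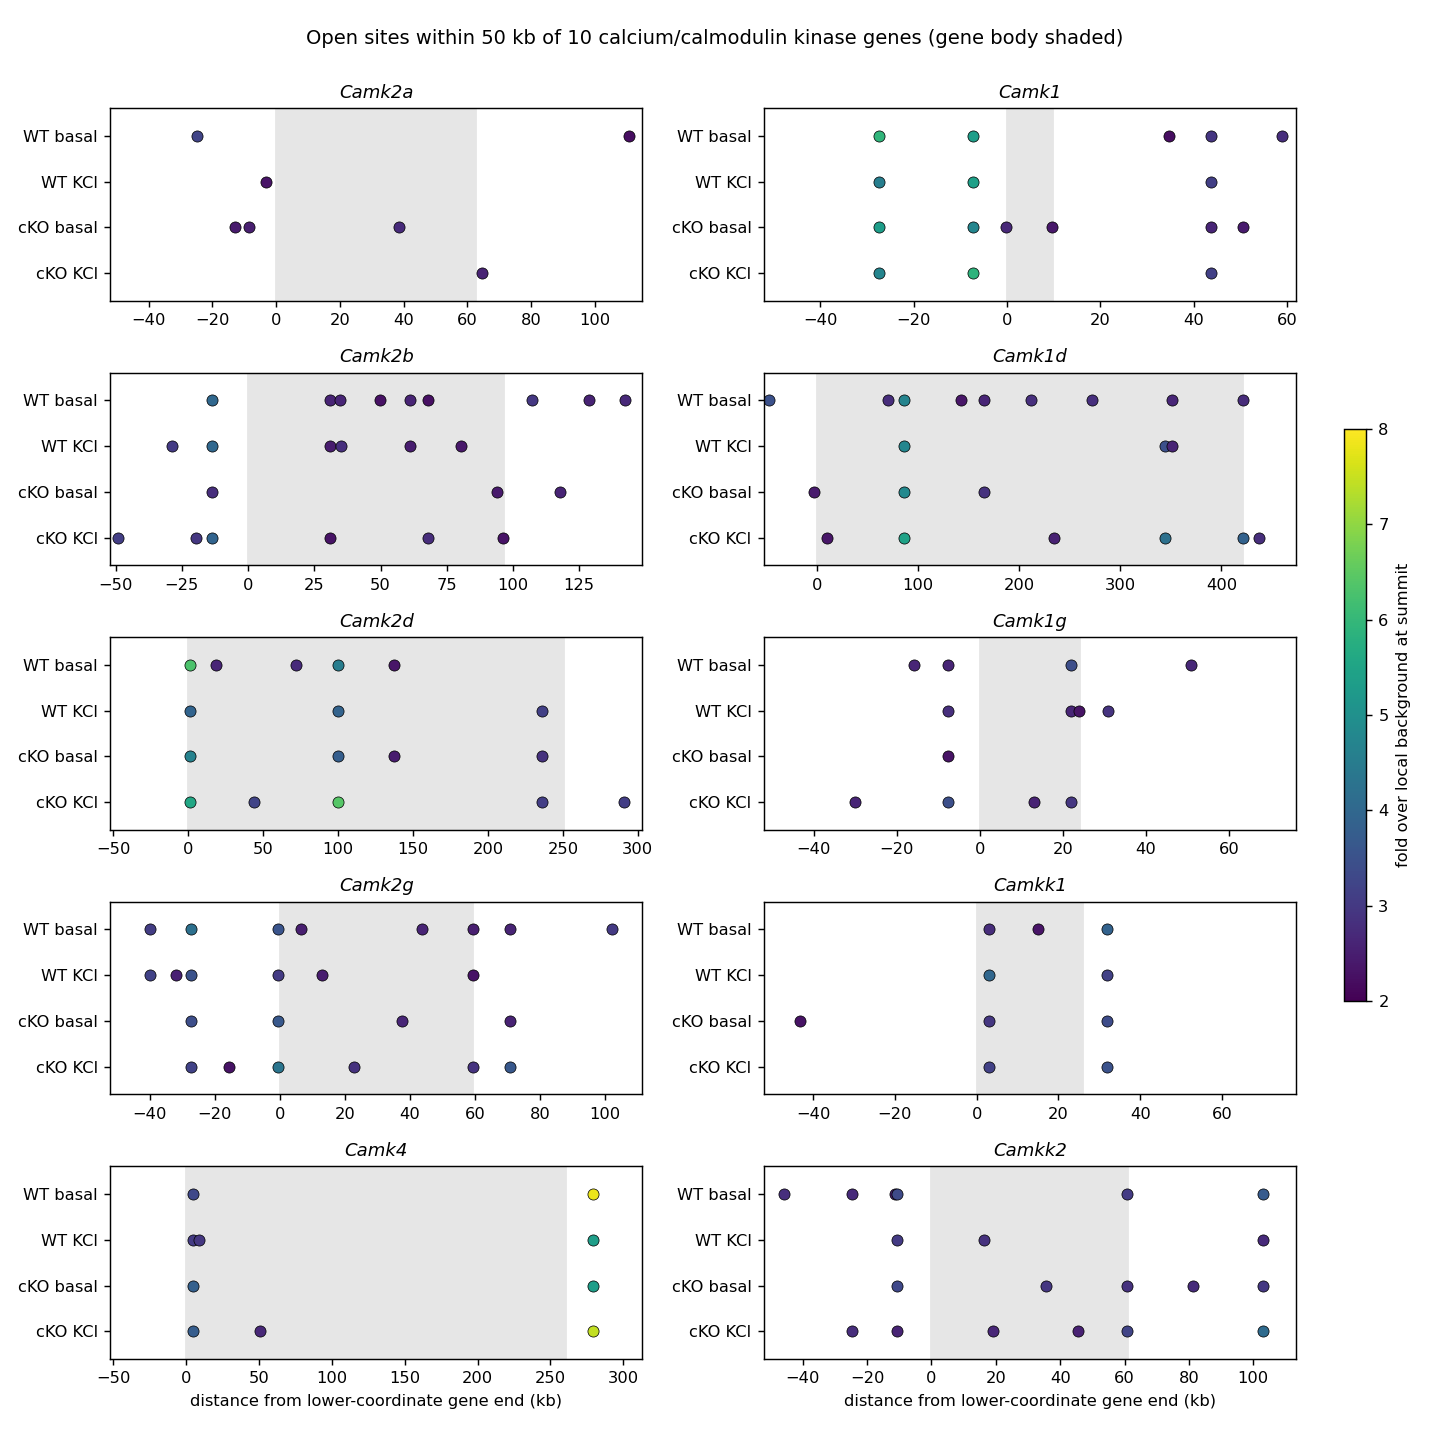
Every site within 50 kb of the 10 kinase genes. The x axis is the distance in kb from the lower-coordinate end of the gene, the grey band is the gene body, each row is 1 list and each point is 1 site coloured by fold over local background. Columns of 4 points, such as the site near the start of Camk2d or the Stard4 end beside Camk4, are the 16 sites in all lists, and lone points are the 65 sites in 1 list.

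Among the 10 genes, the longest had few sites for their length. Camk1d, the longest at 421.4 kb, had 15 sites or 2.88 per 100 kb of window, and Camk4, at 260.8 kb, had 4 sites or 1.11 per 100 kb. Camk2b (96.7 kb) and Camk2g (59.3 kb) were the densest, with 8.64 and 8.16 per 100 kb. The median of the 10 was 5.37 per 100 kb, beside 4.07 over all protein-coding genes, whose quartiles were 1.71 and 6.65. Camk4 was thus below the lower quartile, and Camk2b, Camk2g, Camk1 (7.29) and Camkk2 (6.83) were above the upper.

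CaMKII genes held 45 of the sites, 24, 16, 14 and 18 by list, with 5 in all lists. Camk2d, encoding the delta subunit, had the highest fold at a start among the 7 genes of the promoter table. Its start and 1 internal site had a peak in every list. Camk2a, the alpha subunit gene and the best-known CaMKII gene of the forebrain, had no site in more than 1 list. Camk2g also had 2 sites in all lists, and Camk2b had 1.

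Camk2d lies at chr3:126595487-126846326 and had 8 sites, 5, 3, 4 and 5 by list. The site over its start (chr3:126596152-126597552), where the first sequence printed above lies, had a fold of 6.31 and 3.91 in the basal and KCl lists of WT, and of 4.64 and 5.58 in those of cKO. Its summit pileups were 65, 42, 53 and 60 fragments, with exact 95% Poisson intervals of 50.2 to 82.8, 30.3 to 56.8, 39.7 to 69.3 and 45.8 to 77.2, which cover counting error only. WT KCl was lowest and WT basal highest, and all 4 intervals overlapped. The summits lay close to the annotated start, at −4, 5, −38 and −37 bp. In both cKO lists a separate smaller peak was listed upstream, with its summit at −658 bp (fold 3.27) in cKO basal and −676 bp (fold 2.97) in cKO KCl. The WT basal peak reached from −753 to 282 bp as 1 peak and so covered the same stretch, while the WT KCl peak began at −178 bp.

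A second Camk2d site in all lists lay 100.1 kb inside the gene (chr3:126695411-126695812), with a fold of 4.51, 3.90, 3.78 and 6.43. Its pileup was 47, 35, 40 and 63 fragments. It was highest in cKO KCl, at 1.70 times the lowest fold, the widest ratio among the 16 sites in all lists, and the intervals of WT KCl (24.4 to 48.7) and cKO KCl (48.4 to 80.6) barely met. A site 236.1 kb inside (chr3:126831367-126831823) was in every list but WT basal, with a fold of 3.14 in WT KCl and of 2.86 and 3.10 in the basal and KCl lists of cKO. The only kinase gene site shared by the basal lists alone was at chr3:126732374-126732793 in Camk2d, with a fold of 2.33 in WT basal and 2.46 in cKO basal. It rested on 23 and 25 fragments, close to the smallest pileups listed. The Camk2d site at chr3:126639251-126639453, in cKO KCl alone, had a fold of 3.21.

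Camk2b, encoding the beta subunit, which binds actin, lies at chr11:5969629-6066357 and had the most sites of the set, 17, or 9, 6, 3 and 6 by list. Only the one at the end of the neighbouring gene Ykt6 (chr11:5955500-5956108, 13.5 kb outside Camk2b) was in all lists, with a fold of 4.0, 4.01, 2.79 and 3.91. Its pileup was 45, 39, 33 and 37 fragments, and cKO basal was lowest on both scales. Inside the gene, chr11:6000413-6000700 was in all lists except cKO basal (fold 2.59 in WT basal, 2.45 in WT KCl and 2.28 in cKO KCl). The internal site chr11:6030549-6030985 was in both WT lists (2.60 and 2.49) and in neither cKO list. The internal site chr11:6037289-6037573 was in WT basal (2.26) and cKO KCl (2.77). Apart from the Ykt6 end, the 2 Camk2b sites of cKO basal, at chr11:6063424-6063640 (2.41) and chr11:6087392-6087591 (2.59), were in no other list.

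Just before the Camk2b start, cKO KCl alone had a peak (chr11:6065838-6066095, fold 2.32, 33 fragments), which covered −347 to −90 bp with its summit at −221 bp. Its 250 bases before the start were 78.4% G and C, the highest share among the kinase genes. The local background there was 13.6 fragments, well over the most frequent background of 8.36 in that list, so 33 fragments made a fold of only 2.32.

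Camk2g, encoding the gamma subunit, lies at chr14:20734873-20794157 and had 13 sites, 8, 6, 4 and 6 by list. Both of its ends carried a site. The lower-coordinate end (chr14:20734125-20734726), which is also an end of Ndst2, was in all lists with a fold of 3.55, 3.04, 3.63 and 4.34 and pileups of 52, 42, 54 and 55. The upper end (chr14:20793959-20794493) had a fold of 2.5, 2.29 and 2.88 in WT basal, WT KCl and cKO KCl and no peak in cKO basal. The end of Zswim8 (chr14:20707265-20707917, 27.0 kb outside) was in all lists with a fold of 4.19, 3.51, 3.41 and 3.18. A site 11.2 kb beyond the upper end (chr14:20805344-20805633) was in every list but WT KCl, with a fold of 2.59, 2.58 and 3.63 in the other 3. At the ends of Sec24c and Fut11 (chr14:20694846-20695259) both WT lists had a peak (3.07 and 3.19) and neither cKO list did. No other kinase gene site of WT KCl lacking a cKO KCl peak had a higher fold.

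Camk2a lies at chr18:60925307-60988152 and had 7 sites, 2, 1, 3 and 1 by list, each in 1 list only and none within 1 kb of its ends. The one inside the gene (chr18:60963629-60963828) was in cKO basal with a fold of 2.72. The one with the highest fold, 3.21, lay 24.7 kb outside in WT basal (chr18:60900357-60900641), and the nearest lay 1.71 kb outside in cKO KCl (2.56). All 7 rested on 30 to 38 fragments. These peak lists thus give no value for the Camk2a start in any condition.

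Camk4, the CREB kinase gene, lies at chr18:32934941-33195767 and had 4 sites, 2, 3, 2 and 3 by list. A site inside the gene, centred 4.37 kb from its lower-coordinate end (chr18:32938727-32939892), was in all lists with a fold of 3.30, 3.03, 3.82 and 3.74 and pileups of 33, 27, 39 and 34. Here both cKO lists were above both WT lists in fold, and the pileup intervals of all 4 overlapped. The strongest site of the whole set lay at the end of Stard4 (chr18:33213511-33214273), 17.7 kb outside Camk4, with a fold of 7.82, 5.34, 5.35 and 7.44. Its pileups were 80, 52, 55 and 74, so that WT basal and cKO KCl were high and the other lists low. The remaining 2 sites were inside the gene and in 1 list each, at chr18:32943597-32943796 in WT KCl (fold 2.94) and at chr18:32985216-32985424 in cKO KCl (2.67).

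CaMKI genes held 31 sites, 18, 10, 10 and 13 by list, with 5 in all lists. Camk1, a gene of 9.80 kb at chr6:113334124-113343922, had 8 sites, 5, 3, 6 and 3 by list, and its 3 sites in all lists belonged to neighbours. The ends of Brpf1 and Cpne9 (chr6:113306300-113307202) had a fold of 5.93, 4.55, 5.33 and 4.74, with 95 fragments in WT basal, the highest pileup of the set. The end of Ogg1 (chr6:113326494-113327052) had a fold of 5.35, 5.38, 4.76 and 5.87. The ends of Tada3 and Arpc4 (chr6:113377394-113378313) had a fold of 2.92, 3.11, 2.63 and 3.13. Camk1's own ends had a peak in cKO basal only. These were the start (chr6:113343653-113343964, fold 2.40, 29 fragments) and the other end, which is close to an end of Ogg1 (chr6:113333717-113333916, fold 2.67, 35 fragments). Both folds were under the median of that list.

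Camk1d, encoding CaMKI delta, lies at chr2:5293457-5714860 and had 15 sites, 9, 3, 3 and 6 by list. One internal site, 85.9 kb from the lower-coordinate end (chr2:5379208-5379479), was in all lists with a fold of 4.71, 4.76, 4.82 and 5.45 and pileups of 48, 44, 53 and 50. Its highest fold was 1.16 times its lowest, the narrowest ratio among the 16 sites in all lists. The start (chr2:5714500-5715018) had a peak in WT basal (fold 2.75, 33 fragments) and in cKO KCl (fold 3.87, 44 fragments), with summits at −145 and 82 bp. Of the kinase gene sites in cKO KCl that WT KCl lacked, this start had the highest fold. The only site of the set shared by the KCl lists alone was in Camk1d, at chr2:5637109-5637619, with a fold of 3.47 in WT KCl and 4.21 in cKO KCl on 31 and 45 fragments. It was also the only kinase gene site with a fold of 4 or more that was missing from a list it was compared with. Another internal site (chr2:5644406-5644896) was in both WT lists (2.65 and 2.60) and in neither cKO list. In WT basal alone, a site 46.8 kb outside the gene (chr2:5246361-5246620) had a fold of 3.50, the highest of all 65 sites in 1 list. The site of cKO basal at chr2:5458805-5459336 (fold 2.85) lay next to a site of WT basal at chr2:5458281-5458651 (2.61) without touching it, and they count as separate sites.

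Camk1g, encoding CaMKI gamma, lies at chr1:193346346-193370355 and had 8 sites, 4, 4, 1 and 4 by list. The site in all lists (chr1:193338412-193338802) lay 7.54 kb outside, within Lamb3, with a fold of 2.63, 2.80, 2.30 and 3.44. It was the only site of Camk1g in cKO basal. A site inside the gene (chr1:193368093-193368448) had a fold of 3.41, 2.63 and 2.95 in WT basal, WT KCl and cKO KCl, on 51, 35 and 44 fragments, and no peak in cKO basal. The start (chr1:193370168-193370409), the CpG-poor sequence printed above, had a peak in WT KCl alone, with a fold of 2.30 on 29 fragments and its summit at −24 bp.

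The CaMK kinase genes held 15 sites, 9, 5, 8 and 8 by list, with 4 in all lists. Camkk1 lies at chr11:73016043-73042073 and had 4 sites, 3, 2, 3 and 2 by list. The site over its RefSeq start (chr11:73018745-73019369) was in all lists with a fold of 2.77, 3.98, 2.96 and 3.16 and pileups of 51, 56, 46 and 51. WT KCl was highest and the other lists lay close together, and the summits lay at −38, −57, −52 and −118 bp. The site is centred 3.01 kb inside the outermost annotated end of the gene, so it was classed as inside the gene and not as a gene end. The end of Ncbp3 (chr11:73047637-73048329) was in all lists with a fold of 3.86, 3.15, 3.38 and 3.52.

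Camkk2 lies at chr5:122718380-122779522 and had 11 sites, 6, 3, 5 and 6 by list. The site at its start (chr5:122778659-122779542) had a fold of 3.05 in WT basal, 2.86 in cKO basal and 3.20 in cKO KCl, on 40, 35 and 35 fragments, and no peak in WT KCl. The summits lay at 354, 626 and 36 bp from the start, and the cKO basal peak covered 357 to 751 bp, downstream of the start itself. The end of P2rx4 (chr5:122707541-122708070) was in all lists with a fold of 3.36, 3.03, 3.29 and 2.60. The end of Anapc5 (chr5:122820895-122821625) was in all lists with a fold of 3.69, 2.71, 2.98 and 4.08. At the Anapc5 end cKO KCl was highest, and at the P2rx4 end it was lowest. A flank site (chr5:122693473-122693714) was in WT basal (2.72) and cKO KCl (2.78). The internal site chr5:122753745-122753980, in cKO basal alone, had a fold of 2.96, the highest of the kinase gene sites in cKO basal and not in WT basal.

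**Figure D2:**
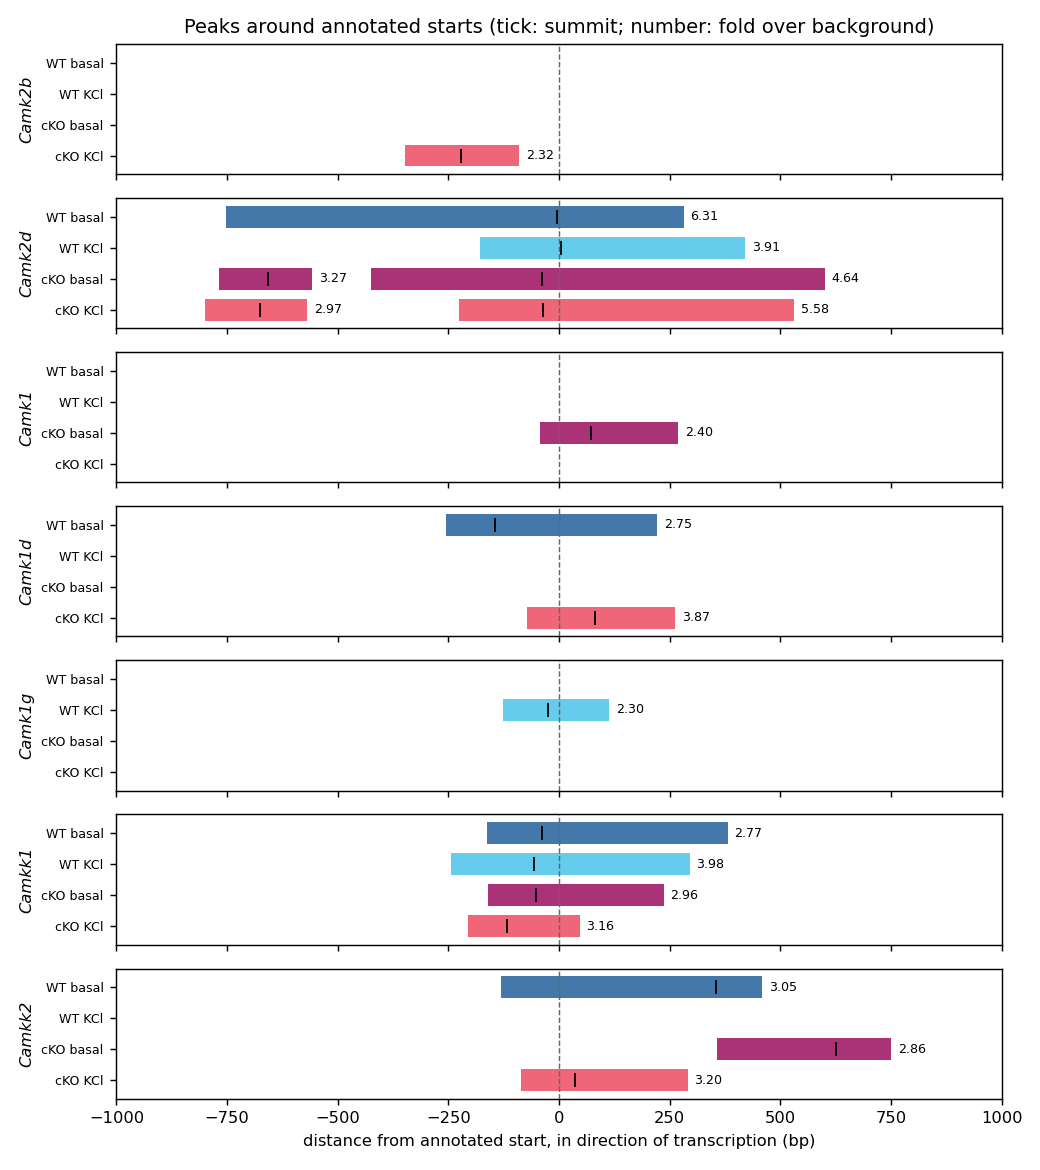
Peaks around the annotated starts of the 7 genes in the promoter table. The x axis is the distance from the start in bp in the direction of transcription, each row is 1 list, bars are peaks, black ticks are summits and the numbers are folds over local background. Camk2d and Camkk1 have a bar across the start in all 4 lists, Camk1d and Camkk2 in WT basal and cKO KCl, and Camk2b, Camk1 and Camk1g show a bar in 1 list each.

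At the gene-end rule of 1 kb, 4, 3, 4 and 5 of the 10 kinase genes had a peak at an end, or 40.0%, 30.0%, 40.0% and 50.0%. Over all protein-coding genes it was 46.8%, 40.1%, 39.2% and 45.4%. Camk2a, Camk4 and Camkk1 had none in any list by this rule, although Camkk1 had the start peak just described. The kinase genes were therefore near the share of all genes in each list, with no test made.

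GC content and CpG frequency before the start ordered the kinase genes only in part. The ratio of observed to expected CpG was 1.31 for Camk2b, 1.02 for Camkk2, 0.838 for Camkk1, 0.794 for Camk2d, 0.759 for Camk1d, 0.534 for Camk1, 0.350 for the inner Camk1d start and 0.0804 for Camk1g. The median over all promoters was 0.373. Of all promoters with a ratio under 0.2, 0.286% had a peak in all 4 lists, rising over the classes of 0.2 to 0.4, 0.4 to 0.6 and 0.6 to 0.8 through 1.92%, 12.9% and 36.3% to 52.2% at 0.8 or more. Camk2d and Camkk1, in the classes 0.6 to 0.8 and 0.8 or more, had a peak in all lists. Camk2b had the highest ratio of the kinase genes and a peak in 1 list, and Camk1g, in the lowest class, also had one in 1 list. The inner start of Camk1d had none. The CRE, the binding sequence of CREB, which CaMKIV phosphorylates, was in none of the 8 kinase gene sequences and in 1.55% of all promoters. The short form was in Camk1 (−185) and Camkk1 (−166) and in 17.8% of all promoters. The AP-1 site was in none of the 8 and in 6.75% of all promoters. CCAAT was found in Camkk1 alone, at −65 and −31, and in 33.8% of all promoters, and the E-box (CANNTG) in Camk1, Camk1g and both Camk1d starts and in 66.2%.

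**Figure D3:**
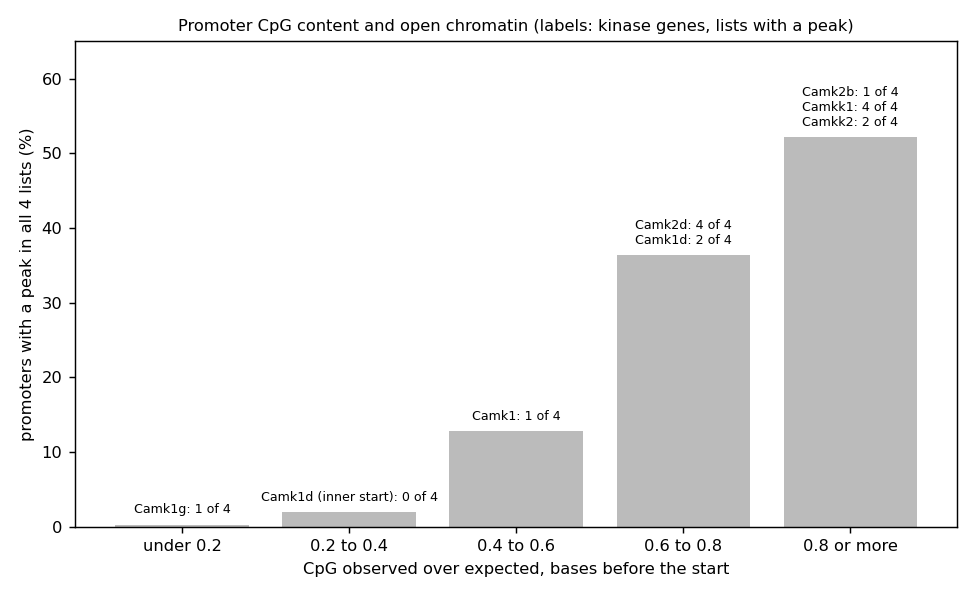
Share of all promoters with a peak in all 4 lists by the ratio of observed to expected CpG in the 250 bases before the start. The y axis is percent of promoters in the class, and the labels give each kinase gene start and how many of the 4 lists had a peak there. The bars run from 0.286% to 52.2%, and Camk2b, in the highest class, has a peak in 1 list.

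The first comparison asked what the kinase genes had in WT and cKO neurons without KCl. Camk2b (9 against 3 sites), Camk1d (9 against 3), Camk2g (8 against 4), Camk1g (4 against 1), Camk2d (5 against 4) and Camkk2 (6 against 5) had fewer sites in cKO basal. Camk2a (2 against 3) and Camk1 (5 against 6) had more, and Camk4 and Camkk1 were equal. Fewer sites in cKO basal were thus found at 6 of 10 kinase genes, beside 67.5% of all genes with a site in either list, and more at 2 of 10, beside 13.4% of all genes. Of the 53 WT basal sites, 34 had no peak in cKO basal, which is 64.2% (exact Clopper-Pearson 95% interval 49.8 to 76.9, counting error only), beside 69% of all WT basal regions. Of the 34 cKO basal sites, 15 had no peak in WT basal, or 44.1% (27.2 to 62.1), beside 48% of all. Both intervals, and those of the 3 comparisons that follow, hold the share of all regions. They are wide and treat neighbouring sites as independent, so this is no test of likeness. In every direction of these comparisons the kinase gene share was below that of all regions. The same 16 sites in all lists enter every direction, so the directions are not independent. All regions were not matched to the kinase gene sites by class, such as gene end or not. The highest folds among the WT basal sites without a cKO basal peak were 3.50 (Camk1d flank), 3.41 (inside Camk1g) and 3.21 (Camk2a flank). In the other direction they were 2.96 (inside Camkk2), 2.86 (the Camk2d site 236.1 kb inside) and 2.85 (inside Camk1d). With each list reduced to its 20229 strongest peaks by q-value, the length of the shortest list, the totals were 34 and 34. Fewer sites in cKO basal were then found at 4 of 10 genes (36.5% of all genes) and more at 5 (35.5%), with Camk2d (2 against 4) and Camkk2 (3 against 5) turned. Camk2b (6 against 3), Camk2g (6 against 4), Camk1d (5 against 3) and Camk1g (3 against 1) still had fewer in cKO basal. WT basal, the longest list, was also the list with peaks at 4 of 5 astrocyte markers, whose part in these counts was not tested.

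The second comparison set the genotypes against each other after KCl. No kinase gene had fewer sites in cKO KCl than in WT KCl, beside 24.5% of all genes. More sites in cKO KCl were found at Camk2d (3 against 5), Camk1d (3 against 6) and Camkk2 (3 against 6), 3 of 10, beside 50.9% of all genes. The other 7 had equal numbers, and at Camk1 and Camkk1 these were the same sites. Of the 34 WT KCl sites, 13 had no peak in cKO KCl, or 38.2% (22.2 to 56.4), beside 49.9% of all regions. Of the 42 cKO KCl sites, 21 had no peak in WT KCl, or 50.0% (34.2 to 65.8), beside 60.7%. The highest folds in WT KCl alone of this pair were 3.19 (Sec24c and Fut11 ends near Camk2g), 3.03 (a Camk2b flank site, chr11:5940768-5941012) and 2.94 (inside Camk4). In cKO KCl they were 3.87 (the Camk1d start), 3.63 (the flank of Camk2g) and 3.21 (inside Camk2d). The cKO KCl list was the longer of the pair, by 25690 to 20229 peaks. At equal lengths the totals were 34 in WT KCl and 32 in cKO KCl, with fewer in cKO KCl at 4 genes (35.9% of all genes) and more at 2, Camk2d (3 against 5) and Camk1d (3 against 4), beside 36.1%.

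The third comparison addressed depolarisation of WT neurons. Fewer sites after KCl were found at 8 of 10 kinase genes, beside 67.5% of all genes, led by Camk1d (9 to 3), Camk2b (9 to 6) and Camkk2 (6 to 3). Camk4 alone had more (2 to 3), beside 13.3% of all genes, and Camk1g was equal. Of the 53 WT basal sites, 31 had no peak in WT KCl, or 58.5% (44.1 to 71.9), beside 69.5% of all regions. Of the 34 WT KCl sites, 12 had none in WT basal, or 35.3% (19.7 to 53.5), beside 48.2%. The WT basal sites without a WT KCl peak included the Camkk2 start (3.05) and the flank sites of Camk1d (3.50) and Camk2a (3.21). The strongest sites in WT KCl and not WT basal were in Camk1d (3.47), in Camk2d (3.14) and in the Camk2b flank (3.03). At equal list lengths the totals were 34 and 34, and 2 genes had fewer sites after KCl, Camk1d (5 to 3) and Camk1 (4 to 3), beside 35.5% of all genes. Camk2b (6 to 6) and Camkk2 (3 to 3) were then equal, and 3 genes had more, beside 36.8%.

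The fourth comparison addressed depolarisation of cKO neurons. After KCl, 7 of 10 kinase genes had more sites, beside 50.9% of all genes, and 3 had fewer (Camk2a 3 to 1, Camk1 6 to 3 and Camkk1 3 to 2), beside 24.2%. The 7 were Camk2b (3 to 6), Camk1d (3 to 6), Camk1g (1 to 4), Camk2g (4 to 6), Camk2d (4 to 5), Camk4 (2 to 3) and Camkk2 (5 to 6). Of the 34 cKO basal sites, 15 had no peak in cKO KCl, or 44.1% (27.2 to 62.1), beside 50.1% of all regions. Of the 42 cKO KCl sites, 23 had none in cKO basal, or 54.8% (38.7 to 70.2), beside 60.5%. The strongest of these were the internal Camk1d site (4.21), the Camk1d start (3.87) and the internal Camk2d site (3.21). In the reverse direction they were 2.96 and 2.73 at Camkk2 and 2.85 at Camk1d. At equal list lengths the totals were 34 and 32, with more sites after KCl at 5 genes (36.7% of all genes) and fewer at 4 (34.8%), among them Camkk2 (5 to 3). These 4 comparisons share lists with each other, so their directions are not independent.

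Whether a kinase gene site recurred in another list went with its fold. Of sites with a fold of 4 or more, 8, 5, 5 and 9 by list, each had a peak in every list it was compared with, except the internal Camk1d site of cKO KCl that cKO basal lacked. Over all regions of that fold, between 0.708% and 10.6% had no peak in the second list, depending on the pair. At a fold of 3 to 4 the kinase gene share without a peak was below that of all regions in every direction, on 6 to 14 sites each. It was 45.5% beside 57.9% for WT basal without cKO basal and 0% beside 28.9% for cKO basal without WT basal. At a fold of 2.5 to 3, 23 of 27 WT basal sites had no peak in cKO basal, or 85.2% beside 85.5% of all regions. Of 15 cKO KCl sites, 14 had none in cKO basal, or 93.3% beside 83.0%, the only direction above all regions at that fold. Under a fold of 2.5, on 4 to 9 sites each, the directions were mixed. The kinase gene share was above all regions for WT basal without WT KCl (100% beside 90.2%) and cKO basal without cKO KCl (88.9% beside 78.5%). It was also above for cKO KCl without cKO basal (100% beside 87.8%) and cKO basal without WT basal (77.8% beside 76.2%). In all other directions it was below. The 65 sites in 1 list had folds of 2.21 to 3.50 and rested on 21 to 46 fragments, with a median of 29. Of these, 53 were under the median fold of their list, namely 18 of 25, 9 of 10, 13 of 14 and 13 of 16 by list.

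**Figure D4:**
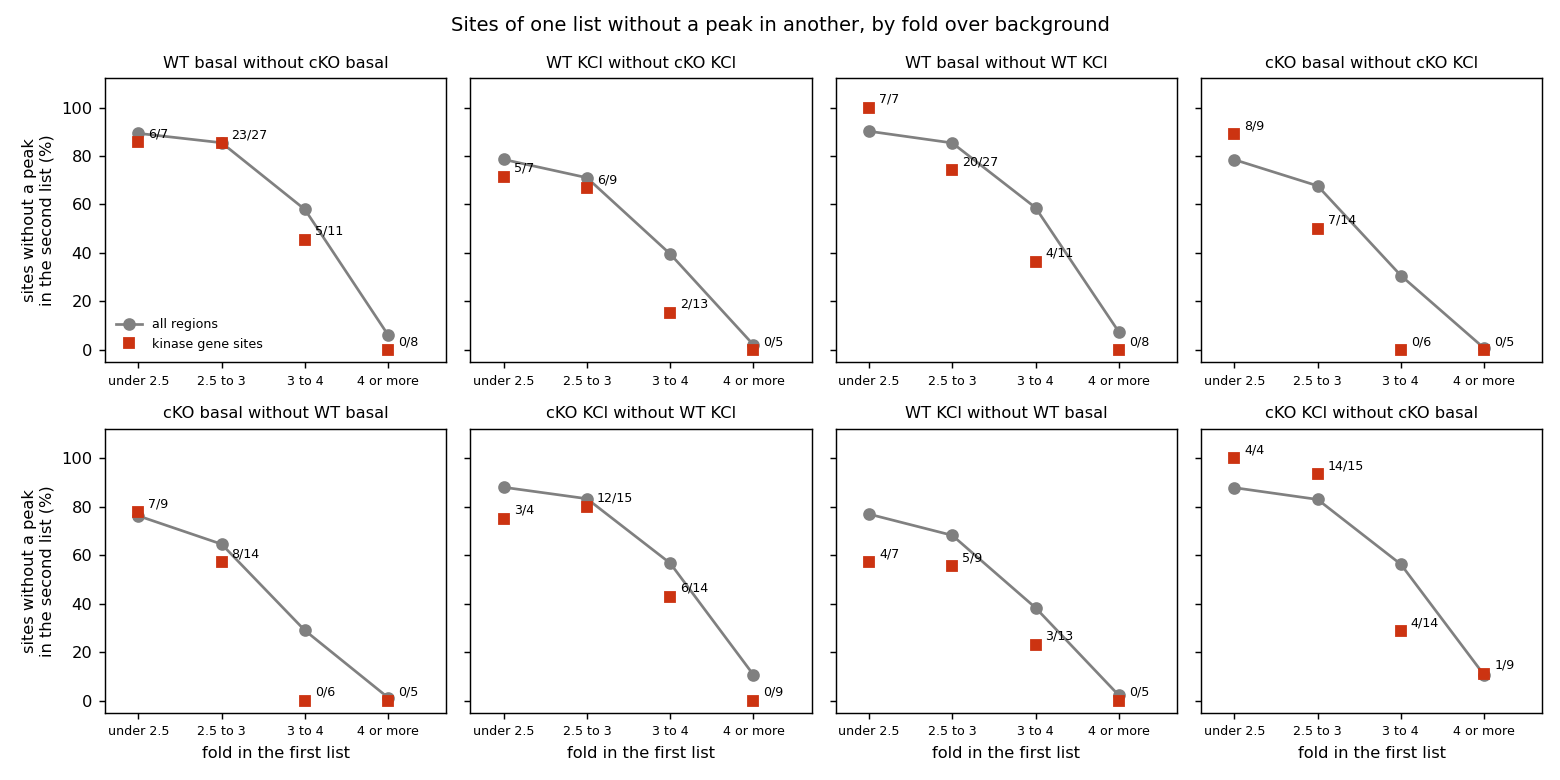
Share of sites of a first list with no peak in a second list, by fold in the first list, for the 8 directions of the 4 comparisons. The y axis is percent, grey circles are all regions, red squares are kinase gene sites and the fractions give their numbers. In each panel the grey share drops to between 0.708% and 10.6% at a fold of 4 or more, and the red squares there are at 0 except for 1 of 9 sites in cKO KCl without cKO basal.

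By pattern over the lists, the kinase gene sites split much as all regions did. WT basal alone held 25 sites (26.3%, beside 29.2% of all regions) and cKO KCl alone 16 (16.8% beside 17.0%), while WT KCl alone held 10 (10.5% beside 12.5%) and cKO basal alone 14 (14.7% beside 12.7%). Sites in both WT lists and neither cKO list numbered 3, in Camk2b, Camk2g and Camk1d, or 3.16% beside 1.86%. Sites in both cKO lists alone numbered 0, beside 1.30% of all regions. The KCl lists alone shared 1, in Camk1d, and the basal lists alone shared 1, in Camk2d, or 1.05% each, beside 1.35% and 1.96%. Another 3 sites, at the Camk1d start, in Camk2b and in the Camkk2 flank, were in WT basal and cKO KCl, or 3.16% beside 3.86%. Missing from cKO basal alone were 3 sites, in Camk2b, in Camk1g and at the upper end of Camk2g, or 3.16% beside 2.24%. Missing from WT KCl alone were the Camkk2 start and the Camk2g flank site, or 2.11% beside 2.40%. Missing from WT basal alone was the Camk2d site 236.1 kb inside, or 1.05% beside 0.666%.

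At the 16 sites in all lists, WT basal had the highest fold at 6, WT KCl at 2, cKO basal at 1 and cKO KCl at 7. The lowest fold was theirs at 2, 7, 5 and 2 sites. Over all 7197 regions in 4 lists, the shares were 33.8%, 14.4%, 7.88% and 43.9% for the highest fold. For the lowest fold they were 13.95%, 35.4%, 42.5% and 8.23%. The order of the lists by highest fold was the same for the kinase gene sites, while the lowest fold was most often in WT KCl for them and in cKO basal for all regions. In both, cKO KCl and WT basal, which led by highest fold, were the longest lists. The ratio of highest to lowest fold ran from 1.16 to 1.70, and the 95% counting intervals of the pileups overlapped at 16 of 16 sites. Overlap of such intervals is no test of a difference, and the pileups are counts not scaled for depth.

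**Figure D5:**
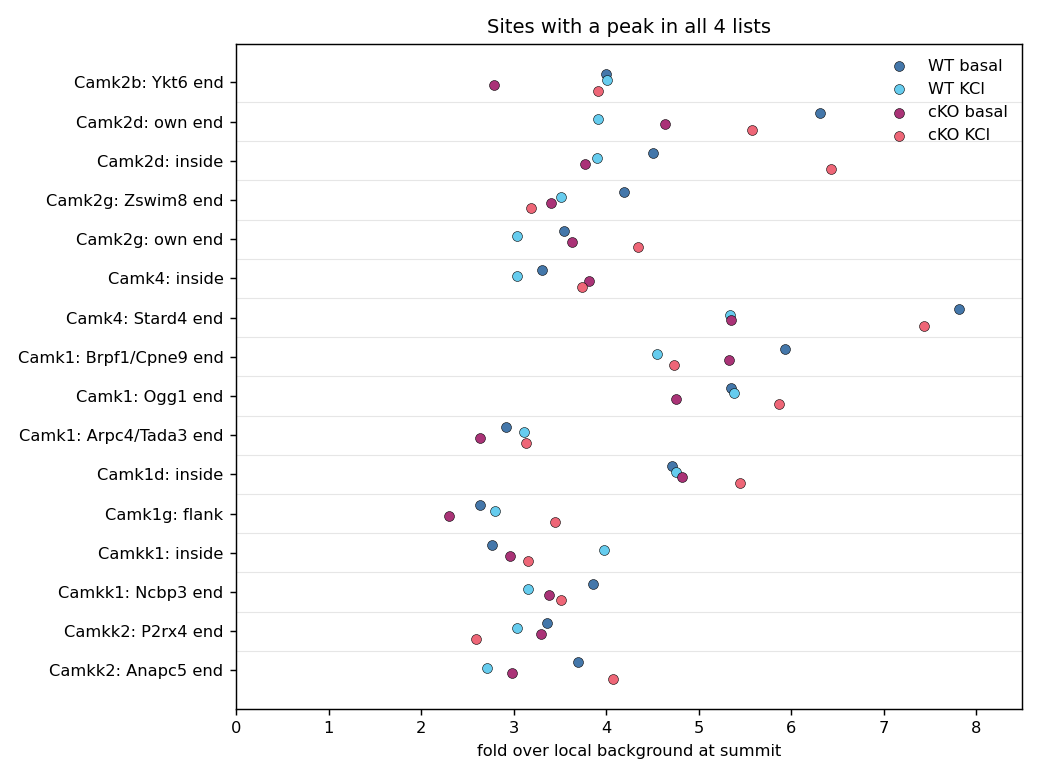
Fold over local background at the 16 sites with a peak in all 4 lists. The x axis is fold on a linear scale, each row is 1 site named by kinase gene and position, and each point is 1 list. WT basal or cKO KCl is the rightmost point at 13 of 16 rows, led by the Stard4 end near Camk4 at 7.82 in WT basal.

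The other genes of the pathway, 29 in all, had 230 sites within 50 kb. A peak at a gene end was present in 22, 22, 23 and 23 of them, or 75.9%, 75.9%, 79.3% and 79.3%. Over all protein-coding genes the share was 46.8%, 40.1%, 39.2% and 45.4%. For the kinase genes it was 40.0%, 30.0%, 40.0% and 50.0%, by a rule that leaves out the start peak of Camkk1. No test was made. The calmodulin genes Calm2 and Calm3 had an end peak in every list, with a fold of 4.19, 4.40, 4.0 and 3.58 at Calm2 and of 5.09, 4.75, 4.83 and 4.57 at Calm3. Both were lowest in cKO KCl. Creb1, the CREB gene, had a fold of 8.04, 5.88, 5.67 and 6.69. The calcineurin genes Ppp3ca, Ppp3cb, Ppp3cc and Ppp3r1, whose phosphatase is also switched on by calmodulin, had an end peak in all lists. The genes with no end peak in any list were Gap43, Pcp4, Camkv, Gria1 and Akt1, of which Gap43 and Pcp4 bind calmodulin, Camkv encodes a pseudokinase of the family and Gria1 a glutamate receptor subunit phosphorylated by CaMKII.

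The pathway genes had fewer sites in cKO basal than in WT basal at 20 of 29 and more at 5, beside 67.5% and 13.4% of all genes. In cKO KCl against WT KCl 6 had fewer and 15 more, beside 24.5% and 50.9%. After KCl in WT, 19 had fewer and 4 more, beside 67.5% and 13.3%, and in cKO 7 had fewer and 13 more, beside 24.2% and 50.9%. At equal list lengths the 4 comparisons gave 10 fewer and 13 more, 9 and 11, 12 and 9, and 11 and 12. The largest net changes were at Dapk1, a calmodulin-regulated death-associated kinase, with 11, 1, 6 and 7 sites, at Grin2b, an NMDA receptor subunit that binds CaMKII, with 10, 3, 4 and 3, and at Mylk, the myosin light chain kinase, with 9, 2, 6 and 4. The CaMKII inhibitor gene Camk2n1 had 4, 4, 3 and 3, and Camk2n2 had 8, 3, 6 and 4. The median net change per gene was −2, 1, −2 and 0 over the pathway genes in the order of the 4 comparisons, −1, 0, −2 and 1 over the 10 kinase genes, and −1, 1, −1 and 1 over all genes.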

How the data were processed

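ATAC-seq peak lists of cultured cortical neurons were used, 1 per condition. Per the submitters' processing notes, Bowtie2 and MACS2 were used with GRCm38/mm10. Not given in the sources used here are versions, settings, duplicate removal, the Tn5 shift and the way in which 2 libraries became 1 list. Per peak, the authors deposited a score, the fold (a ratio to local background), −log10 p-values, −log10 q-values and the summit's offset in bp. By list, −log10 q was at least 1.31 to 1.51. Depth in reads is unknown. The pileup was recovered as the whole number that solves the fold, (pileup + 1)/(background + 1), and the Poisson p-value within 0.001 in −log10 p, for 100% of peaks per list, and the method was tested on simulated data.

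Peaks overlapping by at least 1 bp were merged, and 5 mitochondrial peaks per list were left out. Where a list had several peaks in a site, the highest fold was used. Genes and promoters came from RefSeq tables (GRCm38.p6), and no site sequence was analysed here. All 10 kinase and 29 pathway genes matched by symbol, and values of 1 pathway gene are not reported here. Sites described singly were those at gene ends, those in all 4 lists, those in 2 lists of 1 genotype or treatment and the 3 strongest unmatched sites per direction, and others were added after their values were seen. Members and lists were chosen with earlier results of these data known. No columns of unmatched samples were present (0). Python 3.11.15, NumPy 2.4.6, SciPy 1.17.1 and Matplotlib 3.10.9 were used. Alternatives covered the window, overlap, gene-end distance, q-value and list length.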

Additional observations from a re-analysis of the deposited data

Results flagged for a closer look

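The net change in sites after KCl had opposite signs in the 2 genotypes for the 10 kinase genes together and for 5 of them singly. These differences were not tested, since each rests on 1 list per condition and the 4 list lengths differ in the same way. Of all genes with a site in either list, 67.5% had fewer sites after KCl in WT and 50.9% had more in cKO. The share of all genes with both is not given here, so the count of 5 shows no trait particular to the kinase genes. For all 10 genes the number went from 53 to 34 in WT and from 34 to 42 in cKO, so the changes differed by 27 sites. Camk1d went from 9 to 3 in WT and from 3 to 6 in cKO, a difference of 9. Camk2b went from 9 to 6 and from 3 to 6, a difference of 6. Camk2g went from 8 to 6 and from 4 to 6, a difference of 4. Camkk2 went from 6 to 3 and from 5 to 6, also a difference of 4. Camk2d went from 5 to 3 and from 4 to 5, a difference of 3. With each list reduced to its 20229 strongest peaks, the total went from 34 to 34 in WT and from 34 to 32 in cKO, and the opposite signs were gone. Such a cut makes similar totals likely in advance, so it says nothing of the cause. Of the 5 genes, Camk1d alone then kept opposite signs, from 5 to 3 and from 3 to 4. Camk2b went from 6 to 6 and from 3 to 4, Camk2g from 6 to 6 and from 4 to 5, Camkk2 from 3 to 3 and from 5 to 3, and Camk2d from 2 to 3 and from 4 to 5.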

How the results depend on the processing

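No paired analysis was possible because each condition has 1 list, and leaving out a replicate was not possible for the same reason. Merging peaks within 200 bp or requiring 50% overlap left the site counts by list unchanged and shifted some unmatched shares by a few points. A gene-end limit of 500 bp gave 3, 2, 3 and 4 kinase genes with an end peak by list. A limit of 2 kb gave 5, 3, 4 and 7, beside 4, 3, 4 and 5 at 1 kb. With gene bodies only, the kinase gene sites numbered 26, 18, 14 and 22 by list and 5 in all lists. With a 10 kb window they numbered 30, 24, 21 and 27 by list and 9 in all lists. With 100 kb they numbered 81, 48, 46 and 60 by list. At a −log10 q of at least 5 the sites numbered 25, 15, 12 and 22, with 10 in all lists and 2 kinase genes with a gene-end peak in cKO basal. The share without a peak in the other list was then 0% for cKO basal against WT basal and 8.33% for cKO basal against cKO KCl. For WT KCl it was 6.67% against cKO KCl and against WT basal. For WT basal it was 52% against cKO basal and 44.0% against WT KCl. For cKO KCl it was 36.4% against WT KCl and 50% against cKO basal. The lists cut at that q-value were of unequal length, with 14026, 9017, 8827 and 13264 peaks. With each list reduced to its 20229 strongest peaks, the sites numbered 34, 34, 34 and 32 by list, and 38.2% of WT basal sites had none in WT KCl. The opposite KCl changes of the 10 genes together were then gone. Equal list lengths make similar totals likely in advance, so these totals say nothing of why the full lists differed, which was not tested. The 65 sites in 1 list rested on 21 to 46 fragments, which limits how firmly their absence elsewhere can be read. Shares of all regions and of all genes at the changed settings are not given in this section. Its counts and shares therefore show no trait particular to the kinase genes.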
